A study of Mus musculus with 4 samples.

Results

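Transcriptional regulators known for their part in γδ and innate-like T-cell fates were followed upon washout of a γ-secretase inhibitor (GSI): Sox13, Sox4, Rora, Zbtb16, Zbtb7b, Tox, Maf, Etv5 and Nfil3. They were chosen by gene symbol, and all 9 are among the 24391 genes of the count table. RNA-Seq was performed in Beko cells, a mouse leukemia pre-T-cell line in which Notch signaling is constitutively active. The GSI group holds 2 libraries of cells kept for 48 h in DAPT, the GSI that blocks cleavage of the Notch receptors, with fresh inhibitor added once on the way. The washout group holds 2 libraries of cells that received the same treatment, were washed and then stayed in inhibitor-free culture for 24 h more. The labels give the dose of DAPT as 10 mg/ml, whereas the study's methods give 10 μg/ml. All 4 libraries come from the same line, and the labels do not say whether replicates are separate cultures, so the p-values measure only the spread between these libraries, which may be technical. Washed cells also spent 24 h longer in culture, and return of Notch activity, the washing and this longer culture cannot be told apart here.

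During T-cell development in the thymus, progenitors that receive strong Notch signals are held on the T-cell path, and they then choose between the αβ and the γδ lineage. Most αβ cells become conventional CD4+ or CD8+ cells, whereas γδ T cells, NKT cells and innate lymphoid cells (ILCs) acquire effector programs early and share a group of transcription factors. Sox13 and Sox4 are HMG-box factors linked to γδ effector programming, where Maf and Etv5 act as well, and Rora acts in innate lymphoid cells and in Il17a-producing T cells. Zbtb16 (PLZF) is the defining factor of NKT cells, Zbtb7b (ThPOK) commits thymocytes to the CD4+ lineage, Tox is needed for CD4+ T cells and ILCs, and Nfil3 is needed for NK cells and ILCs.

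The reads counted on genes came to between 13716199 and 36364200 per library, and 12266 genes were tested. Levels are given as CPM, counts scaled to a common library size from each library's counts on the tested genes and its TMM factor (between 0.930 and 1.08). At this depth 3 counts, taken as the limit of detection, correspond to between 0.0881 and 0.223 CPM, which covers counting error only. A gene was called when its adjusted p-value was under 0.05 and its log2 fold change (washout over GSI) lay above 1 (higher) or below -1 (lower). This gave 950 genes higher and 1437 lower in edgeR's quasi-likelihood test, and with libraries scaled to the total count alone (total-count scaling) 586 higher and 1963 lower, with the median of all genes moved from -0.01 to -0.21 on the log2 scale. The cells expressed T-cell transcripts: all 16 markers listed for T cells passed the filter on low counts and were tested, and Rag1, a recombinase of developing lymphocytes, was the most abundant of them at 1764 and 2368 CPM in GSI and 2766 and 2555 CPM in the washout libraries. Ptcra, the pre-TCR α chain, was the only T-cell marker called higher (log2 fold change 2.37), while 3 were called lower, among them Cd5 (-1.90) and Gata3 (-1.67).

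Of the 9 regulators, 8 could be tested. Upon washout 6 of them were called lower (Sox13, Rora, Zbtb7b, Tox, Maf and Etv5) and 0 were called higher, where over all genes tested 11.7% were called lower and 7.74% higher. The median log2 fold change of the 8 was -2.19, against -0.01 for all genes tested. Zbtb7b passed the filter on low counts only through the GSI libraries, in which it is higher. Its place among the 6, in the median and in every later count of the regulators is thus a description only. Sox4 came close to the threshold on the fold change, Nfil3 was not called, and Zbtb16 was at 0 in all libraries. Both washout libraries lay below both GSI libraries for 7 of the 8, which is the case for 39.1% of all genes tested. Since RNA was taken from whole cultures, fewer cells that express a gene and less RNA of it per cell cannot be told apart.

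**Figure D1:**
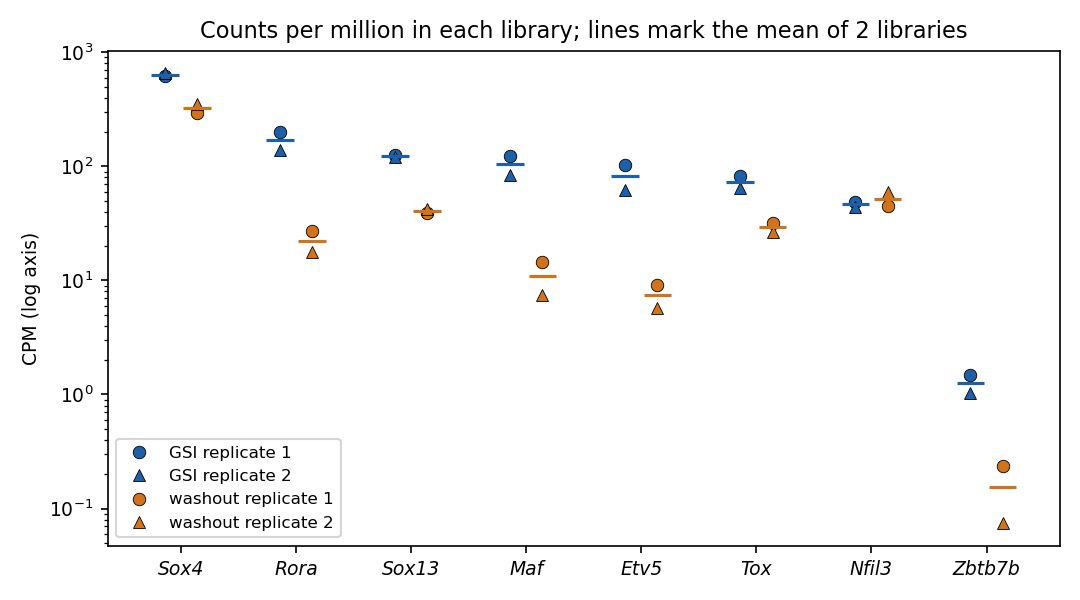
CPM (log axis) of the 8 regulators tested, ordered by their mean in GSI, with circles for replicate 1, triangles for replicate 2 and lines for the mean of 2 libraries. All washout points lie below the GSI points for each gene except Nfil3, and Etv5 and Maf show the widest distance.

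The RBPJ motif TGGGAA, through which the Notch transcription complex binds DNA, was searched for in the promoters of these genes as context for the values below. RefSeq promoter sequences were found for 6 of the 9 regulators, with 8 annotated starts, and each was placed in mm9 by an exact match. Maf, Tox and Zbtb16 had no entry. In the 250 bases upstream of the start, on either strand, 4 of the 8 windows hold the motif, and so do 21.6% of the 32851 promoter windows of all genes. A match is a description of the letters and not evidence of binding. In Beko cells the study found RBPJ sites that lost binding upon GSI mainly away from transcription starts. The sites that GSI left unaffected lay mostly near starts. A search of promoters does not cover distal sites. The 4 windows with a match are shown for the motif they hold, and that of Nfil3, the regulator that was tested and whose groups overlapped, is shown as a window without one. They are written from 5′ to 3′ along the gene's strand in lower case, with the motif in capitals.
Sox13, chr1:135320790-135321039 (minus strand, mm9): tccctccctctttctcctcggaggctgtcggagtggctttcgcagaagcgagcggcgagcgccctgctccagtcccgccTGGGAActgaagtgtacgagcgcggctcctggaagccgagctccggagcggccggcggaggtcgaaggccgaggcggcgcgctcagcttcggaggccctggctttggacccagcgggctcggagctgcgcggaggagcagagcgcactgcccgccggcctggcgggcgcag
Sox4, chr13:29045569-29045818 (minus strand, mm9): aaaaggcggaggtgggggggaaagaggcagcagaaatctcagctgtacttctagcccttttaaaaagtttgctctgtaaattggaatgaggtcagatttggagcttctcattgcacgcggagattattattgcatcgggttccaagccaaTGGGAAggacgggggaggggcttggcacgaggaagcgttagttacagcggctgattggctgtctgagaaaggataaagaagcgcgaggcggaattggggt
Zbtb7b, chr3:89197301-89197550 (minus strand, mm9): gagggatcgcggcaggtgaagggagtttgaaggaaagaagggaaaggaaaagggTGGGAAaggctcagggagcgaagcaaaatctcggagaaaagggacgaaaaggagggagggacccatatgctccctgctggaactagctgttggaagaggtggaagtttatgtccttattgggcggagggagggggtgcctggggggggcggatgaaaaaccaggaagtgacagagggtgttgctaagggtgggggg
Etv5, second start, chr16:22438442-22438691 (minus strand, mm9): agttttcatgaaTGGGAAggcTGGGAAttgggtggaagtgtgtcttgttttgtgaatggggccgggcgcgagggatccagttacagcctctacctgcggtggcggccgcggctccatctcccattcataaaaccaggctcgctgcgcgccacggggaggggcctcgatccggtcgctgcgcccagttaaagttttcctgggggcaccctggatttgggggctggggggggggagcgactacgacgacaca
Nfil3, chr13:53076409-53076658 (minus strand, mm9): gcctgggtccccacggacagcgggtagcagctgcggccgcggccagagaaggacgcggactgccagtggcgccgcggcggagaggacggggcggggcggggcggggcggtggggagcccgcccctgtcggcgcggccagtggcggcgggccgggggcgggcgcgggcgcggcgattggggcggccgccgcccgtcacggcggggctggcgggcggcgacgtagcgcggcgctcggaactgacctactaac

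Etv5 holds the motif 2 times, beginning at bases 13 and 22 of its downstream start, and not at its upstream start. The match begins at base 80 in Sox13, at base 151 in Sox4 and at base 55 in Zbtb7b, all in the same orientation as the gene. The upstream window of Rora holds none, but its window of 300 bases, which reaches past the start, holds 1 match, as 25.6% of all such windows do. The upstream windows of Rora and of the other starts of Etv5 and Zbtb7b, which lack the motif as that of Nfil3 does, are not printed.

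Among the regulators of γδ effector cells, Etv5 had the lowest log2 fold change. This ETS factor lies on chromosome 16 from 22381382 to 22439792 (mm9, minus strand). Its level was 103 and 62.1 CPM under GSI and 9.11 and 5.73 CPM after washout, from 3285 and 906 against 310 and 77 counts. Replicate 1 was the higher library in both groups, and the groups were separated by a gap of 6.82-fold between the nearest libraries. In edgeR's quasi-likelihood test the log2 fold change of Etv5 was -3.43 (standard error 0.310, adjusted p = 0.000536), and 0.505% of the genes tested fell further.

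Maf, a bZIP factor of γδ T cells and helper T cells, lies on chromosome 8 from 118206842 to 118231694 (minus strand). Its level was 124 and 84.3 CPM in the GSI libraries against 14.4 and 7.52 CPM in the washout libraries, and its groups did not overlap. By edgeR's quasi-likelihood test the log2 fold change of Maf was -3.19 (standard error 0.319, adjusted p = 0.000678), or 9.14-fold. The washout libraries differed by 1.92-fold, and the fold of Maf was 13.9 without washout replicate 1 and 7.17 without washout replicate 2.

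Rora, a nuclear receptor of the ROR family, is the longest of these genes and runs along chromosome 9 from 68501593 to 69236053 (plus strand). Its level fell from 198.0 and 139.0 CPM under GSI to 27.0 and 17.6 CPM after washout. The lower GSI library still lay 5.15-fold above the higher washout library. For Rora the log2 fold change was -2.90 (standard error 0.251, adjusted p = 0.000484 in edgeR's quasi-likelihood test). The differences in fold change among Etv5, Maf and Rora were not tested, and with standard errors between 0.251 and 0.319 no order among these 3 is drawn.

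Sox13, an HMG-box factor of the SoxD group, lies on chromosome 1 from 135278880 to 135320954 (minus strand). Its replicates were the closest of all the regulators called, with 126 and 120 CPM in the GSI libraries and 39.1 and 42.2 CPM in the washout libraries. All washout values lay well below the GSI values: the log2 fold change of Sox13 was -1.60 (standard error 0.0966, adjusted p = 0.000305 in edgeR's quasi-likelihood test), a 3.04-fold fall. A fit that corrected for the GC content and the length of genes gave -1.21.

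Sox4, the SoxC factor, is a gene without introns on chromosome 13 from 29040788 to 29045582 (minus strand), and was the most abundant of the regulators in each library. The GSI libraries had 620 and 655 CPM against 296 and 353 CPM after washout, so that the groups were separated here as well, by 1.76-fold. The log2 fold change of Sox4 was -0.97 (standard error 0.127, adjusted p = 0.00153 in edgeR's quasi-likelihood test). This is past the threshold on the adjusted p-value, which 7 of the 8 regulators and 25.4% of all genes tested pass in this direction, but not past that on the fold change. The estimate crossed -1 under 4 of 14 alternative settings, among them total-count scaling (-1.17). Gm17419, annotated on the opposite strand, shares 2616 exon bases with Sox4, and reads of the pair could be mixed if counting ignored strand. Noncoding transcripts on the opposite strand also share 440 exon bases with Maf, 260 with Tox and 82 with Rora, while Sox13, Etv5 and Nfil3 share none.

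**Figure D2:**
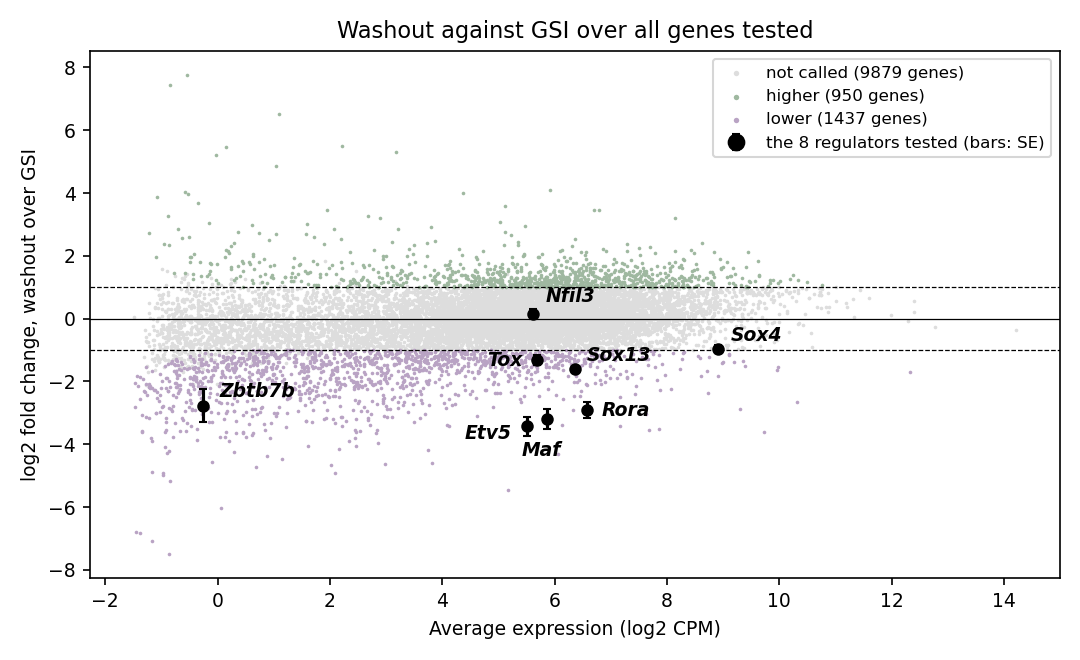
Log2 fold change (washout over GSI, vertical axis) against average log2 CPM (horizontal axis) for the 12266 genes tested, with the 8 regulators in black and bars for the standard error. Dashed lines mark 1 and -1. Etv5, Maf and Rora lie between -3.43 and -2.90 at average levels between 5.50 and 6.58.

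Among the regulators of conventional and innate T-cell choice, Tox, an HMG-box factor, lies on chromosome 4 from 6613500 to 6918704 (minus strand). Its transcripts stood at 81.6 and 64.1 CPM with GSI and at 32.1 and 26.3 CPM after washout. The nearest libraries of the 2 groups were 1.99-fold apart. For Tox the log2 fold change came to -1.31, with a standard error of 0.159 and adjusted p = 0.00121 in edgeR's quasi-likelihood test.

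Zbtb7b, the CD4-lineage factor ThPOK, lies on chromosome 3 from 89181566 to 89198698 (minus strand) and was near the limit of detection. The GSI libraries had 47 and 15 counts and the washout libraries 8 and 1, that is 1.47 and 1.03 CPM against 0.235 and 0.0744 CPM. Washout replicate 2 was below its own limit of detection, so the size of the change is uncertain. Summed over libraries, 62 counts in GSI against 9 upon washout give a ratio of 7.02 of GSI over washout, with an exact 95% interval of 3.47 to 16.1 that covers counting error only. The fitted log2 fold change of Zbtb7b was -2.77 (standard error 0.531, adjusted p = 0.00634 in edgeR's quasi-likelihood test). It was no longer called without GSI replicate 1 (-2.46, adjusted p = 0.0516 in the same test), and without washout replicate 1 the fitted fold rose from 6.82 to 15.9. Gm15417, on the opposite strand, shares 116 exon bases with Zbtb7b and had 4, 1, 2 and 0 counts in GSI 1, GSI 2, washout 1 and washout 2.

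Zbtb16, on chromosome 9 from 48462416 to 48644050 (minus strand), was listed at 0 counts in each of the 4 libraries. If its reads were counted, the limit of 3 counts allows as much as 0.0938 and 0.206 CPM under GSI and as much as 0.0881 and 0.223 CPM after washout. At 0 throughout are 7342 genes (30.1%), among them Hmgcs1, an enzyme of the sterol synthesis that growing cells use, so that of Zbtb16 it can only be said that it is listed at 0.

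Nfil3, a bZIP repressor on chromosome 13 from 53062578 to 53076442 (minus strand), was at 48.9 and 43.8 CPM under GSI against 44.5 and 59.0 CPM after washout. Here the groups overlapped, since washout replicate 1 lay between the GSI libraries. The log2 fold change of Nfil3 was 0.15 (standard error 0.154, adjusted p = 0.455 in edgeR's quasi-likelihood test). The sign turned with total-count scaling (-0.053) and when washout replicate 2 was left out (-0.047).

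The order of the regulators changed between the conditions. Divided by exon length, the mean levels in GSI were 132.9 CPM per kb for Sox4, 28.5 for Sox13, 22.9 for Nfil3, 20.1 for Etv5, 12.9 for Rora, 12.6 for Maf, 9.58 for Tox and 0.223 for Zbtb7b. In this order the libraries of Nfil3 and Etv5 overlapped, as did those of Rora and Maf and of Maf and Tox, so that these neighbors do not differ beyond their spread, and the lowest library of Etv5 was level with the highest of Rora at 15.1 CPM per kb. Upon washout the mean levels were 67.7 CPM per kb for Sox4, 25.5 for Nfil3, 9.42 for Sox13, 3.84 for Tox, 1.81 for Etv5, 1.70 for Rora, 1.33 for Maf and 0.0277 for Zbtb7b, where the libraries of Etv5, Rora and Maf overlapped. Nfil3 thus stood above Sox13 in both washout libraries and below it in both GSI libraries, and Tox moved from below Etv5, Rora and Maf in mean level to above all their washout libraries. Exon lengths count every annotated isoform, which understates the level of genes with many exons such as Rora. Summed over the 9 genes, their transcripts made up 1303 and 1169 CPM under GSI and 463 and 511 CPM after washout.

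**Figure D3:**
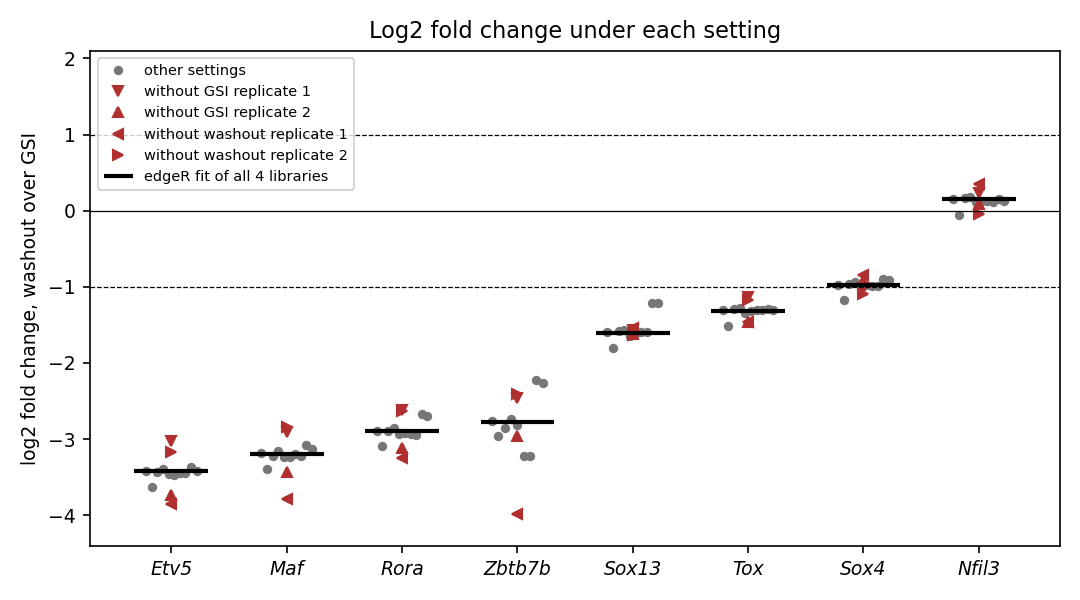
Log2 fold change of each regulator (washout over GSI) in the fit of all 4 libraries (bars), without each library in turn (triangles) and under the other settings (gray points), with dashed lines at 1 and -1. The 6 genes called stay below -1 throughout, Sox4 lies on both sides of -1, and Nfil3 lies on both sides of 0.

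Each regulator belongs to a family of related factors, and 25 relatives were followed alongside. Of these, 15 could be tested, 6 were called lower and 0 higher, and their median log2 fold change was -0.81. Over all genes tested 11.7% were called lower and 7.74% higher, and the median was -0.01. Of the relatives called lower, Mafa and Tox2 passed the filter on low counts only through the GSI libraries. Their place among the 6 and in the median is a description only. The 13 relatives described below include 4 of those called lower.

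In the Maf family, Mafa, a large factor that carries an activation domain as Maf does, was low, with 138 and 56 counts under GSI against 14 and 4 after washout. Its groups did not overlap, and Mafa fell by 3.44 on the log2 scale (standard error 0.343). Mafa passed the filter on low counts only through the GSI libraries, in which it is higher, so its call is a description only. With at least 10 counts in every library it was left untested. The small factors Maff, Mafg and Mafk lack the activation domain. None of the 3 small factors was called: the log2 fold change was 0.15 for Maff, 0.18 for Mafg and 0.24 for Mafk, with adjusted p-values from edgeR's quasi-likelihood test of 0.552, 0.412 and 0.0585. With total-count scaling Maff and Mafg were at -0.052 and -0.024. Mafg shares 495 exon bases with a pseudogene entry of the same symbol and 124 with Sirt7, both on its own strand, which leaves its count uncertain. The difference between Mafa and the small factors was not itself tested.

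The other families were mixed. Tox2 was called lower, from 42 and 8 counts to 5 and 1 (log2 fold change -2.95, standard error 0.661). It passed the filter on low counts only through the GSI libraries, and it was left untested without GSI replicate 1, with at least 10 counts in every library and in both fits of thinned counts, while without washout replicate 1 it was at -3.63. Tox4, which is widely expressed, had a log2 fold change of 0.09, and of -0.11 with total-count scaling. Among the zinc finger factors related to Zbtb7b and Zbtb16, Zbtb20 was called lower (-2.10, and -1.51 after the GC and length correction), and Zbtb7a (-0.51), Zbtb32 (-0.81) and Zbtb17 (-0.05, and 0.27 after the GC and length correction) were not. Zbtb32, with 29 and 14 counts under GSI against 18 and 7 after washout, was called lower under 1 alternative, thinned counts with the replicate number as a block (-1.34, adjusted p = 0.0336 in edgeR's quasi-likelihood test). For Zbtb7a the adjusted p-value was 0.00733 in edgeR's quasi-likelihood test, under the threshold, with a fold change that was not past it. Etv4, the relative of Etv5, was near the limit of detection, with 10, 7, 6 and 7 counts, and no change could be detected at this level. Dbp and Tef, bZIP activators that share binding sites with Nfil3, were lower where Nfil3 was not called: Dbp fell by 1.41 on the log2 scale, and Tef had -0.94 (adjusted p = 0.000703 in edgeR's quasi-likelihood test), just short of the threshold on the fold change and past it under total-count scaling (-1.14). Reads of Dbp and Sphk2, which share 491 exon bases on opposite strands, could be mixed if counting ignored strand, and the same holds for Tox4 with Mettl3 (1106 bases). None of the 4 relatives of the Sox genes reached the filter.

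**Figure D4:**
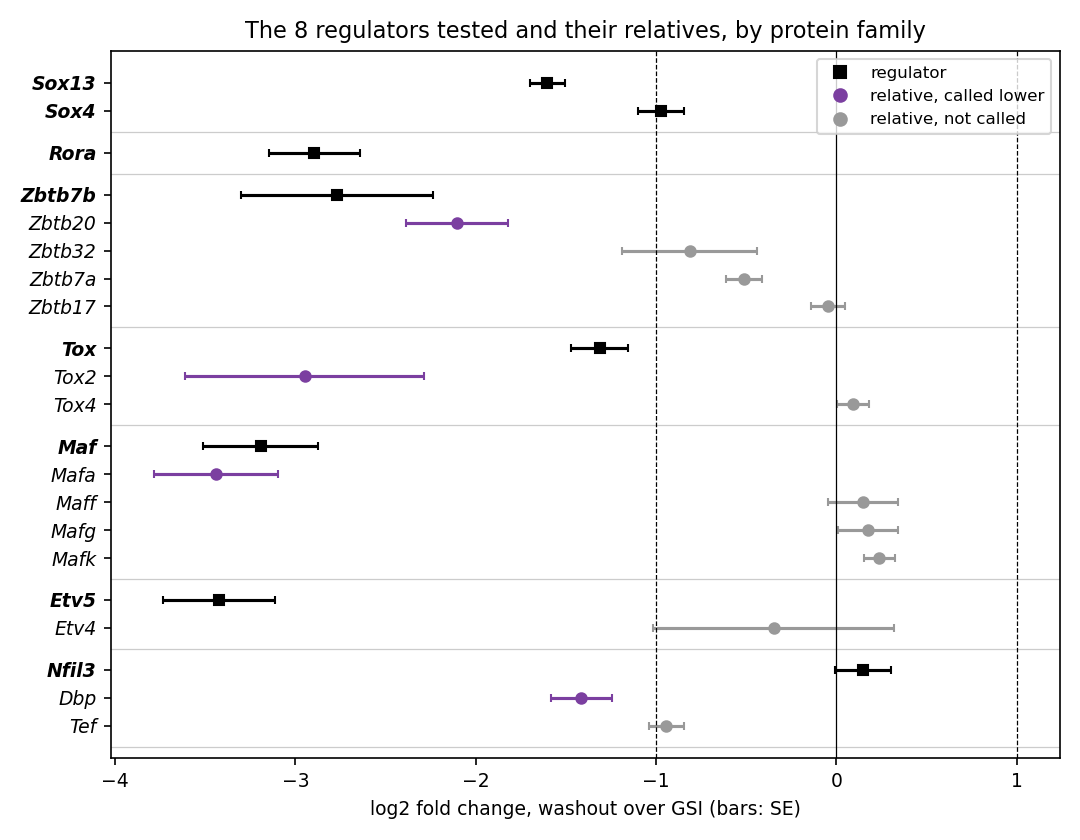
Log2 fold change (washout over GSI) with bars for the standard error, for the 8 regulators tested (squares, bold) and 13 of their tested relatives (circles, purple where called lower), grouped by protein family. Maf and Mafa lie below -2.5 while Maff, Mafg and Mafk lie just above 0, and Nfil3 lies to the right of Dbp and Tef.

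Genes of the cell types in which these regulators act were followed in 4 lists, whose counts stand beside the 11.7% of all genes tested that were called lower and the 7.74% called higher. Of the 24 genes listed for the γδ program 19 are in the table, 9 were tested, 5 were called lower and 0 higher (median log2 fold change -1.15). Il2rb, a cytokine receptor chain, was at 6.13 and 3.91 CPM under GSI and at 0.441 and 0.670 CPM after washout, with a log2 fold change of -3.27. Il2rb and Egr2, another gene called lower, passed the filter on low counts only with the GSI libraries, in which they are higher. Their place among the 5 and in the median is thus a description only. Il17a, Blk, Ccr6 and Il1r1 were among the 6 of 19 genes listed at 0 counts in all libraries, beside 30.1% of all genes. Of these it can only be said that they are listed at 0. The γδ receptor genes in the list (Tcrg-C1, Tcrg-C2, Tcrg-C3, Tcrg-C4 and Trdc) are not in the count table under these symbols and could not be assessed.

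For the NKT and innate-like program 12 of 23 genes were tested, 5 were called lower and 1 higher (median -0.71). Gzma, the granzyme, was the most abundant at 2600.3 and 1800.3 CPM under GSI against 387 and 307 CPM after washout (log2 fold change -2.66). Prf1, which encodes the pore-forming perforin, fell by 2.93 on the log2 scale from a low level of 5.66 and 3.08 CPM. In the other direction Slamf6, a receptor of the SLAM family that NKT precursors need, rose from 7.53 and 9.39 CPM under GSI to 26.3 and 24.2 CPM after washout (log2 fold change 1.60, standard error 0.162, adjusted p = 0.000708 in edgeR's quasi-likelihood test). Il4, Ifng, Klrd1 and Klrk1 were among the 10 of 23 genes listed at 0 counts in all libraries, beside 30.1% of all genes. Here too no more can be said than that they are listed at 0.

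For the innate lymphoid program 11 of 22 genes in the table were tested, 7 were called lower and 0 higher (median -1.67). Tox2 is among the 7 and passed the filter on low counts only through the GSI libraries. Its place there and in the median is a description only. Next to Tox2, Pdcd1, the inhibitory receptor PD-1, had the widest change (-2.56). Tcf7, the effector of Wnt signaling that T cells and ILCs share and that Sox13 is known to bind, was the most abundant at 1062 and 1009 CPM under GSI against 581 and 555 CPM after washout, and its log2 fold change was -0.87, or -1.07 with total-count scaling. All 11 genes listed for the choice between CD4 and CD8 were tested, of which 4 were called lower and 0 higher (median -0.48). Gata3, which acts upstream of Zbtb7b, fell by 1.67 and Runx3, the factor that Zbtb7b represses, by 1.62 on the log2 scale. Myb, the most abundant of this list, had -0.29 and was not called. The lists share genes, such as Runx3 and Gata3, with each other or with the T-cell markers.

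**Figure D5:**
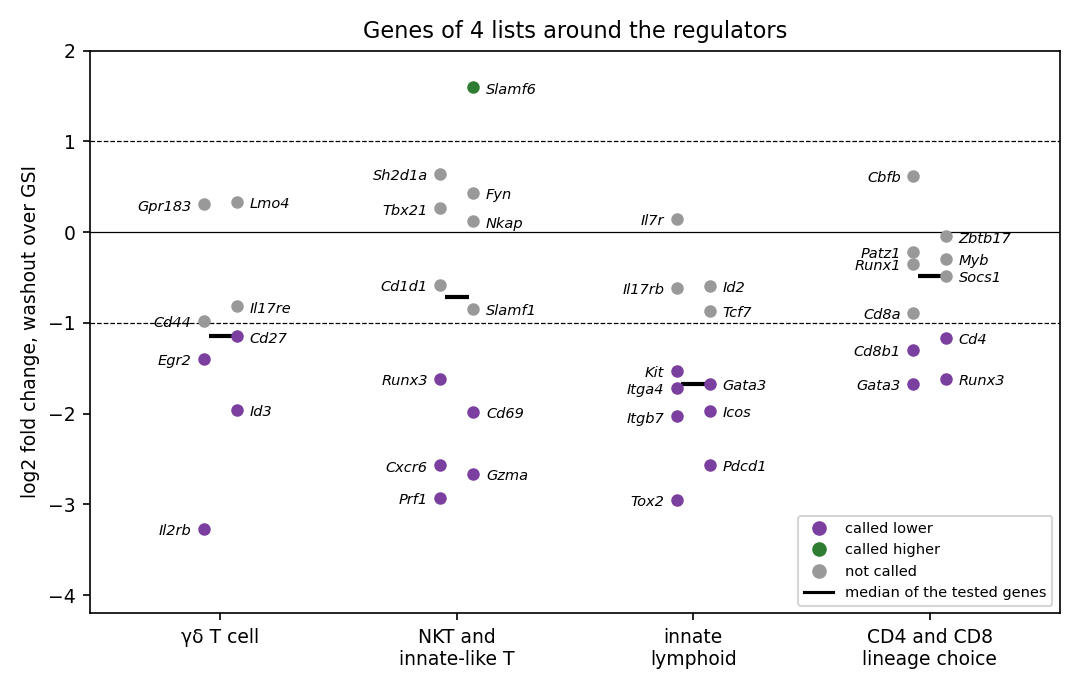
Log2 fold change (washout over GSI) of tested genes in 4 lists, with purple for genes called lower, green for called higher, gray for not called and a bar for the median over all tested genes of each list. The medians are -1.15, -0.71, -1.67 and -0.48 from left to right, and Slamf6 is the only gene called higher.

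Most of the markers listed for other cells could not be tested. Those tested were called lower, as were 11.7% of all genes tested, and their part in the results was not tested. For the markers at 0 in all libraries it can again only be said that they are listed at 0. Of the markers listed for mast cells, 1 of 7 was tested: Cpa3, a mast-cell protease, fell by 4.30 on the log2 scale (log2 fold change -5.83 without washout replicate 1 and -3.62 without GSI replicate 1), while Fcer1a, Ms4a2, Mcpt8, Tpsb2 and Cma1 had 0 counts in all libraries, and the summed level of the list was between 77.4 and 176 CPM in GSI and between 2.23 and 9.37 CPM upon washout. For NK cells Gzma alone was tested, and Ncr1, Klrb1c, Eomes, Klra8 and Klra4 were at 5 counts or fewer in each library. Itgam was the only tested marker of macrophages and granulocytes (-3.08), from a summed level of between 38.2 and 49.3 CPM to between 4.99 and 5.55 CPM, with Lyz2 and Elane at 0. Blnk was the only tested B-cell marker (-1.50), with a summed level of 9.50 and 6.58 CPM under GSI and of 3.41 and 2.31 CPM after washout, with Ms4a1, Pax5 and Ebf1 at 0. Without GSI replicate 1 Blnk was no longer called (-1.08, adjusted p = 0.0960 in edgeR's quasi-likelihood test). Erythroid markers came to 12.03 and 10.4 CPM in GSI and between 4.39 and 4.99 CPM upon washout, with Gata1 (-1.26) and Klf1 (-1.18) called lower and Hbb-b1 and Hba-a1 at 0. Klf1 was tested and not called in 6 of the alternatives, including DESeq2. With at least 10 counts in every library only 1 erythroid marker was called lower.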

How the data were processed

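RNA-Seq reads were trimmed by the authors (trimGalore), mapped on mm9 by HISAT2 2.2.1 (1 reported alignment for each read) and counted by summarizeOverlaps with an iGenomes annotation. What they deposited are raw counts for each gene and library, neither normalized nor pooled. The strand setting and the overlap mode of the counting are not given in the sources used here. Conditions and replicate numbers were taken from the labels.

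The quasi-likelihood test of edgeR 4.0.16 (R 4.3.3) compared the conditions without covariates, after filterByExpr and TMM scaling. P-values were adjusted over all 12266 genes tested by the Benjamini-Hochberg method. A standard error was obtained as the size of the log2 fold change over the root of its F statistic. Positions, exon lengths and GC content came from GENCODE vM1 on mm9, in which 20749 of 24391 symbols were found. Promoter sequences came from RefSeq (GRCm38.p6 table). The members and gene lists were chosen with earlier results of these data known. Named, with the exceptions given last, were all members, every tested relative, and for the other lists the 2 largest falls and rises called and the most abundant gene. Other genes at 0, in overlaps or near the filter on low counts were named after their values were seen. Alternatives were DESeq2 1.42.0, DESeq2's size factors or the total count in edgeR, 2 other filters, thinning to 13716199 counts, a GC and length correction (loess, on the 89.8% of tested genes with both), a replicate block, the adjusted p-value alone, and leaving out each library. A lone remaining library was assumed to vary like the others. Of the listed genes, 3 are counted in their lists but not reported here. The scripts were tested on simulated data.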

Additional observations from a re-analysis of the deposited data

How the results depend on the processing

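The number of regulators called lower was 6 or 7 and the number called higher 0 under all settings run. Leaving out 1 library gave 6 to 7 lower. The replicate numbers of the 2 conditions share only a number in the labels; the differences between replicates 1 and 2 correlated at 0.48 across genes between conditions, and with the replicate number as a block 6 regulators were lower and 1576 of all genes, against 1437 without it. Sox4 was called with total-count scaling (-1.17), with at least 10 counts in every library (-1.01) and without GSI replicate 1 (-1.02) or washout replicate 2 (-1.09), and Zbtb7b lost its call without GSI replicate 1 (-2.46). Among the relatives, Zbtb32 was called only with thinned counts and the block (-1.34), and Tox2 was untested in 4 settings. Requiring 10 counts also left Zbtb7b and Mafa untested. Where Zbtb7b was tested, its place in the counts of regulators called is a description only. With total-count scaling 586 of all genes were higher, and Nfil3 (-0.053), Tox4 (-0.11), Maff (-0.052) and Mafg (-0.024) changed sign. Leaving out 1 library gave Nfil3 between -0.047 and 0.35 and Zbtb17 between -0.087 and 0.016, and Zbtb17 was also positive after the GC and length correction (0.27, and 0.27 with the block). By the adjusted p-value alone 3315 of all genes were higher and 3120 lower, 3 NKT genes were higher, and 1 gene of CD4 and CD8 choice was higher and 7 lower, since the threshold on the fold change was dropped. The cause of the other changes was not tested. Depth limits Zbtb7b, Tox2 and Etv4, and Zbtb16 could not be tested.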

Other observations

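Replicate 1 was above replicate 2 in both conditions for Etv5, Rora, Maf, Tox and Zbtb7b. The ratio of the GSI libraries was 1.65 for Etv5, 1.47 for Maf, 1.42 for Rora and 1.27 for Tox in CPM, and the ratio of the washout libraries was 1.59, 1.92, 1.53 and 1.22. Sox13 and Sox4 had ratios of 1.05 and 0.947 in GSI and 0.926 and 0.840 upon washout. Replicate 1 was also the deeper library in both conditions.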
